A study of Mus musculus with 9 samples.

Results

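The mRNAs of 8 subunits of the voltage-gated sodium channels were followed through RNA pulled down with a CELF2 antibody from the cytoplasm of the newborn mouse cortex. The genes were *Scn1a*, *Scn2a*, *Scn3a*, *Scn8a* and *Scn9a*, which encode the pore-forming alpha subunits Nav1.1, Nav1.2, Nav1.3, Nav1.6 and Nav1.7, and *Scn2b*, *Scn3b* and *Scn4b*, which encode auxiliary beta subunits. They were chosen by name, with earlier results of these data known. Every RefSeq transcript row that carried one of these genes was used, which gave 37 of the 107384 rows of the deposited table. Of these rows, 13 were curated transcripts and 24 were predicted models. All 8 genes passed the filter on low counts and were among the 15267 protein-coding genes tested.

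A voltage-gated sodium channel is built around an alpha subunit, a single large protein that forms the pore and opens when the membrane depolarizes, and so carries the rising phase of the action potential. Beta subunits are small membrane proteins with an immunoglobulin-like domain that attach to the alpha subunit and alter its gating and surface level. Nav1.3 is known as the channel of the immature brain, Nav1.2 and Nav1.6 as channels of excitatory axons, Nav1.1 as a channel of inhibitory neurons and Nav1.7 as a channel of peripheral sensory neurons. CELF2 is an RNA-binding protein that regulates splicing in the nucleus and mRNA stability and translation in the cytoplasm.

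The libraries came from cortices of heterozygous *Celf2* knock-in (KI) mice at postnatal day 0, which carry the R493H change in CELF2. RNA was measured in 3 CELF2-KI RIPs, in which 10 µg of rabbit anti-CELF2 antibody was held with the cytoplasmic fraction for 3 hours, in 3 IgG RIPs with normal rabbit IgG in its place, and in 3 input samples of the fraction set aside earlier. All 3 groups share the genotype, and no WT cortex was among these 9 libraries, so the values compare pull-downs within KI cortex and not KI with WT. The labels call the libraries biological replicates without saying whether they came from separate animals, so p-values measure the spread between these libraries.

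Protein-coding counts ranged from 13523208 to 16840312 in CELF2-KI RIP, from 9347321 to 14965243 in IgG RIP and from 55250740 to 78514685 in input. Markers of cortical cells were present in every group. The summed level of 5 excitatory neuron markers was 1481 to 2077 CPM (the count of a gene per TMM-scaled protein-coding library size) in CELF2-KI RIP, 798 to 907 in IgG RIP and 824 to 971 in input, and 3 of the 5 rose over each control. The 5 inhibitory neuron markers summed to 560 to 704, 303 to 352 and 403 to 423 CPM, with 2 higher over IgG RIP and 1 over input. Of 5 radial glia markers, 1 was lower than IgG RIP and 2 were lower than input. Of all genes tested, 13.4% were called higher over IgG RIP and 14.6% over input (FDR under 0.01 and at least 2-fold). The shares called lower were 13.6% and 15.5%. Sensory neuron markers summed to at most 19.4 CPM, with Calca too low to be tested, and muscle markers to at most 4.82 CPM, with Ckm, Actc1 and Tnnt2 too low to be tested. Of 4 microglia markers 3 were tested, with 1 higher over IgG RIP, 1 higher over input and 1 lower than input. Their sums were 89.3 to 122, 43.3 to 58.4 and 78.0 to 103 CPM. Oligodendrocyte precursor and endothelium markers had 0 higher over either control and 1 lower than input in each list. The 5 striatal neuron markers summed to 178 to 211, 115 to 126 and 179 to 198 CPM. Of these 2 were higher over IgG RIP, 0 higher over input and 1 lower than input. Excitatory and inhibitory neuron markers thus moved in the same direction as several channel mRNAs, as did microglia and striatal neuron markers over IgG RIP. The part of these markers in the results below was not tested. The groups are pull-downs and input of the cytoplasmic fraction, so these values compare the RNA recovered and not numbers of cells.

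The 3 beta subunits stood higher in CELF2-KI RIP than in IgG RIP in each library. *Scn2b* is on chr9:45117876-45130070 of GRCm38.p6, 8.55 kb from its neighbour *Scn4b*, and encodes a beta subunit that forms a disulfide bond with the alpha subunit. Its level was 45.3, 39.9 and 37.0 CPM in the CELF2-KI RIPs, 17.5, 17.5 and 15.9 CPM in the IgG RIPs and 16.4, 17.0 and 16.7 CPM in the inputs. Every CELF2-KI RIP lay above every control, and the IgG RIPs overlapped the inputs. *Scn2b* rose by 1.27 on the log2 scale over IgG RIP (SE 0.13, edgeR quasi-likelihood test, FDR = 2.92e-05) and by 1.29 over input (SE 0.13, FDR = 2.1e-05). Between IgG RIP and input it was 0.02 (SE 0.13, FDR = 0.895).

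*Scn3b* lies on the same chromosome, at chr9:40269216-40291618, and encodes a beta subunit of the developing and adult brain that binds the alpha subunit without a covalent bond. It was at 477, 400 and 406 CPM in the CELF2-KI RIPs, 157, 172 and 204 CPM in the IgG RIPs and 313, 306 and 303 CPM in the inputs. The 3 groups did not overlap, with input between the pull-downs. *Scn3b* rose over IgG RIP by a log2 fold change of 1.27 (SE 0.12, edgeR FDR = 2.16e-05), the same size as *Scn2b*. Over input its log2 fold change was 0.48 (SE 0.12, FDR = 0.0061), which passed the FDR threshold of 0.01 and missed the 2-fold threshold. The IgG RIPs were below input, with a log2 fold change of -0.79 (SE 0.12, FDR = 0.000899).

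*Scn4b*, at chr9:45138624-45154155, encodes the beta subunit whose cytoplasmic tail is linked to resurgent current. It was sparse, with 64, 71 and 38 counts in the CELF2-KI RIPs, 19, 26 and 0 in the IgG RIPs and 182, 303 and 161 in the inputs. These were 5.1, 5.5 and 3.4 CPM, then 1.2, 2.6 and 0.0 CPM, then 2.9, 3.3 and 2.6 CPM. A count of 0 in IgG RIP 3 allows up to 3 counts, or 0.215 CPM, counting error only. Its change of 1.95 over IgG RIP on the log2 scale (SE 0.79, edgeR FDR = 0.0585) and that of 0.66 over input (SE 0.71, FDR = 0.443) did not pass, at a depth that left wide errors. Leaving out 1 library at a time moved the change over IgG RIP from 1.36 without IgG RIP replicate 3 (FDR = 0.0107) to 2.93 without IgG RIP replicate 2 (FDR = 0.0165).

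**Figure D1:**
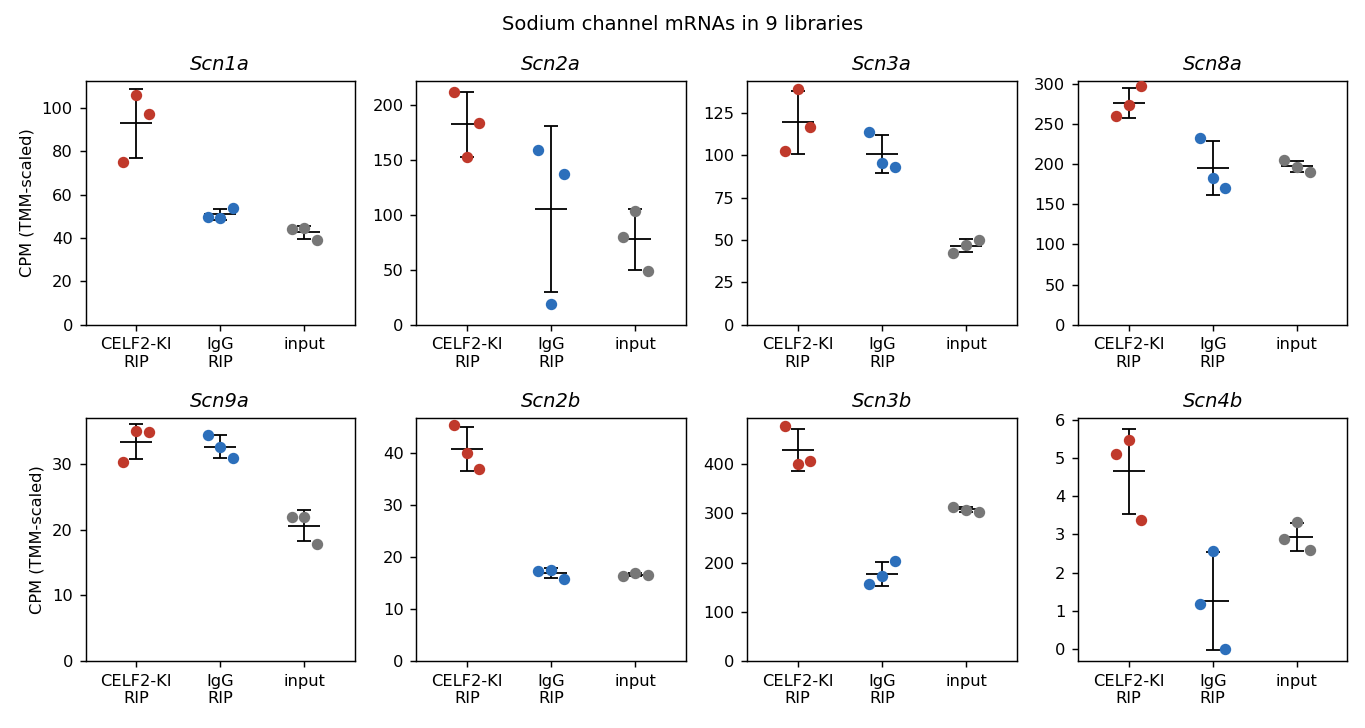
Level of the 8 sodium channel mRNAs in each of the 9 libraries, in CPM on the TMM-scaled library size (vertical axis, a separate scale for each gene). Points are libraries, coloured by group. Dashes are group means and capped bars are the SD of the libraries of a group. *Scn2b* at 37.0 to 45.3 CPM is clear of its 6 controls, and *Scn2a* has a single IgG RIP library at 18.9 CPM.

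The 5 alpha subunits fell into different patterns. *Scn1a*, at chr2:66270781-66440837, whose loss of function causes Dravet syndrome, was at 75.0, 106 and 97.5 CPM in the CELF2-KI RIPs, 49.7, 49.4 and 53.8 CPM in the IgG RIPs and 44.3, 44.4 and 39.2 CPM in the inputs. All 3 CELF2-KI RIPs lay above all 6 controls. On the log2 scale it changed by 0.87 over IgG RIP (SE 0.14, edgeR FDR = 0.000486), short of 2-fold, and 1.12 over input (SE 0.14, FDR = 7.91e-05), past both thresholds. Without input replicate 3 the change over input was 0.96 (FDR = 0.00116) and no longer reached 2-fold. It also stayed under 2-fold with DESeq2 size factors or the DESeq2 test (0.98 each), with upper-quartile factors (0.88) and with only the 2 groups compared (0.89). The same held with TMM over coding and noncoding genes (0.72) and with total counts (0.65). With edgeR glmTreat, a test against the 2-fold change itself, it did not pass (FDR = 0.278). With curated rows only and with rows of the same version as the annotation its sign turned, at -2.35 and -2.39. It was called in 4 of 13 other settings.

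*Scn8a*, at chr15:100869863-101045938, encodes the channel that becomes the main one of the mature axon initial segment. It was at 259, 274 and 297 CPM in the CELF2-KI RIPs, 233, 182 and 170 CPM in the IgG RIPs and 205, 197 and 190 CPM in the inputs. The CELF2-KI RIPs were again above all 6 controls, by a smaller margin. Its log2 fold changes were 0.50 against IgG RIP (SE 0.13, edgeR FDR = 0.00686) and 0.49 over input (SE 0.13, FDR = 0.00722), both under 2-fold. IgG RIP differed from input by -0.02 (SE 0.13, FDR = 0.932).

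*Scn3a*, at chr2:65457118-65567591, was at 103, 139 and 116 CPM in the CELF2-KI RIPs, 114, 95.5 and 93.1 CPM in the IgG RIPs and 42.5, 47.3 and 50.3 CPM in the inputs. Both pull-downs were above input in every library and overlapped each other. *Scn3a* rose over input by 1.35 in the CELF2-KI RIPs (SE 0.14, edgeR FDR = 2.89e-05) and by 1.11 in the IgG RIPs (SE 0.14, FDR = 0.000399). Between the pull-downs it differed by 0.24 (SE 0.14, FDR = 0.169).

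*Scn9a*, at chr2:66480080-66635114, had the same order at a lower count. It was at 30.2, 35.0 and 34.8 CPM in the CELF2-KI RIPs, 34.3, 32.5 and 30.9 CPM in the IgG RIPs and 21.9, 21.9 and 17.8 CPM in the inputs. The difference between the pull-downs was 0.03 (SE 0.14, edgeR FDR = 0.853). Over input *Scn9a* was at 0.70 in the CELF2-KI RIPs (SE 0.14, FDR = 0.0013) and 0.66 in the IgG RIPs (SE 0.14, FDR = 0.00395), each under 2-fold. Over the 9 libraries the log2 CPM of *Scn3a* and *Scn9a* had a Pearson correlation of 0.94, the highest of the 28 pairs of these genes. The libraries share their groups, so this describes the order of the groups.

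*Scn2a*, at chr2:65620764-65767447, was set apart by its spread. It was at 212, 152 and 184 CPM in the CELF2-KI RIPs, 159, 18.9 and 137 CPM in the IgG RIPs and 80.2, 104 and 48.8 CPM in the inputs. IgG RIP 2 held 191 counts of *Scn2a* against 2546 and 1914 in the other IgG RIPs, while in this library the other alpha subunits were at 32.5 to 182 CPM and the beta subunits *Scn2b* and *Scn3b* at 17.5 and 172 CPM, close to the other IgG RIPs. Neither its log2 change of 0.79 over IgG RIP (SE 0.57, edgeR FDR = 0.269) nor that of 1.23 over input (SE 0.57, FDR = 0.0873) passed. Without IgG RIP replicate 2 the change was 0.31 over IgG RIP (FDR = 0.386), and over input it was 1.23 (FDR = 0.00254) and passed.

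**Figure D2:**
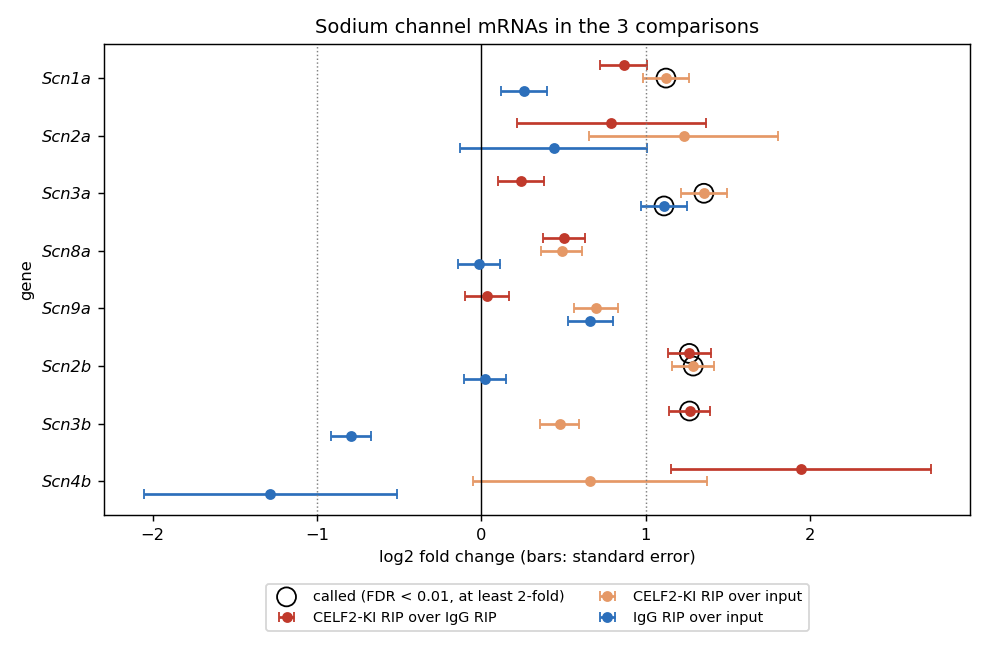
Log2 fold change of each sodium channel mRNA (horizontal axis) in CELF2-KI RIP over IgG RIP, CELF2-KI RIP over input and IgG RIP over input, with bars of 1 standard error from the edgeR fit and lines at a 2-fold change. *Scn2b* is past 2-fold over both controls at 1.27 and 1.29, *Scn3b* over IgG RIP only, and *Scn1a* and *Scn3a* over input only, while *Scn2a* and *Scn4b* have wide bars.

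Read against all genes tested, 2 of the 8 mRNAs (*Scn2b* and *Scn3b*) were called higher over IgG RIP at FDR under 0.01 and at least 2-fold, where 13.4% of all genes were. Over input 3 of 8 were called higher (*Scn1a*, *Scn3a* and *Scn2b*), where 14.6% of genes were. In these comparisons 0 of 8 were called lower, beside 13.6% and 15.5% of all genes, and the fitted change was above 0 in 8 of 8, beside 48.0% and 56.4% of all genes. *Scn2b* alone was called above both controls, 1 of 8 beside a background of 7.58%. On TMM scaling, all 3 CELF2-KI RIPs lay above all 6 controls in 5 of 8 (*Scn1a*, *Scn8a*, *Scn2b*, *Scn3b* and *Scn4b*). Of all genes, 25.2% had this order. *Scn4b* met it narrowly, with CELF2-KI RIP 3 at 3.39 CPM and input 2 at 3.34 CPM. This order can change with the scale and was not counted on other scales. With total counts as library size, the log2 changes of *Scn8a*, *Scn3b* and *Scn4b* over input fell to 0.03, 0.02 and 0.20. Those of *Scn1a* and *Scn2b* were 0.65 and 0.83. In IgG RIP over input 1 of 8 was called higher (*Scn3a*, background 6.79%) and 0 lower (background 5%), with *Scn3b* lower at an FDR under 0.01 but by less than 2-fold. The median log2 fold change of the 8 was 0.83 over IgG RIP and 0.91 over input, beside medians of -0.06 and 0.19 over all genes tested. Both comparisons share the 3 CELF2-KI RIPs, so their agreement is not independent. The 8 genes were chosen with earlier results of these data known, so these shares are a description and no test of the group.

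The sign of all 8 was positive in both comparisons on TMM scaling. When total counts set the scale, the median of all genes over IgG RIP moved from -0.06 to -0.42, and *Scn3a* and *Scn9a* fell to -0.13 and -0.34. On that scale *Scn2b* was at 0.90 over IgG RIP and 0.83 over input and its call ended. Relative to the median of all genes *Scn2b* was at 1.32 over IgG RIP and 1.10 over input on both scales.

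A ratio of 2 mRNAs in the same library does not depend on scaling. Of 28 pairs of the 8 genes, 13 had ratios in the CELF2-KI RIPs that did not overlap those in the IgG RIPs. Over all pairs of the 15267 genes tested this share was 52.2%, so the count of 13 of 28 was no higher than in genes at large. With 3 libraries against 3 the exact two-sided permutation test cannot go below p = 0.1, and the 13 pairs reached it (0.215 after Benjamini-Hochberg adjustment over the 28), so no pair passed. The log2 ratio of *Scn9a* to *Scn2b* was -0.58, -0.19 and -0.09 in the CELF2-KI RIPs, 0.98, 0.89 and 0.96 in the IgG RIPs and 0.42, 0.37 and 0.10 in the inputs. Its groups did not overlap, and *Scn2b* gained on *Scn9a* in CELF2-KI RIP. The log2 ratio of *Scn3a* to *Scn2b* averaged 1.54 ± 0.32 (SD, n = 3) in CELF2-KI RIP, 2.56 ± 0.13 in IgG RIP and 1.48 ± 0.11 in input. *Scn2b* was higher in CELF2-KI RIP in 4 of its 7 pairs and lower in 0, *Scn3b* was higher in 3 and lower in 0, and *Scn9a* was higher in 0 and lower in 6. *Scn2b* against *Scn3b* was at -3.39 ± 0.07 in the CELF2-KI RIPs and -3.38 ± 0.27 in the IgG RIPs.

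**Figure D3:**
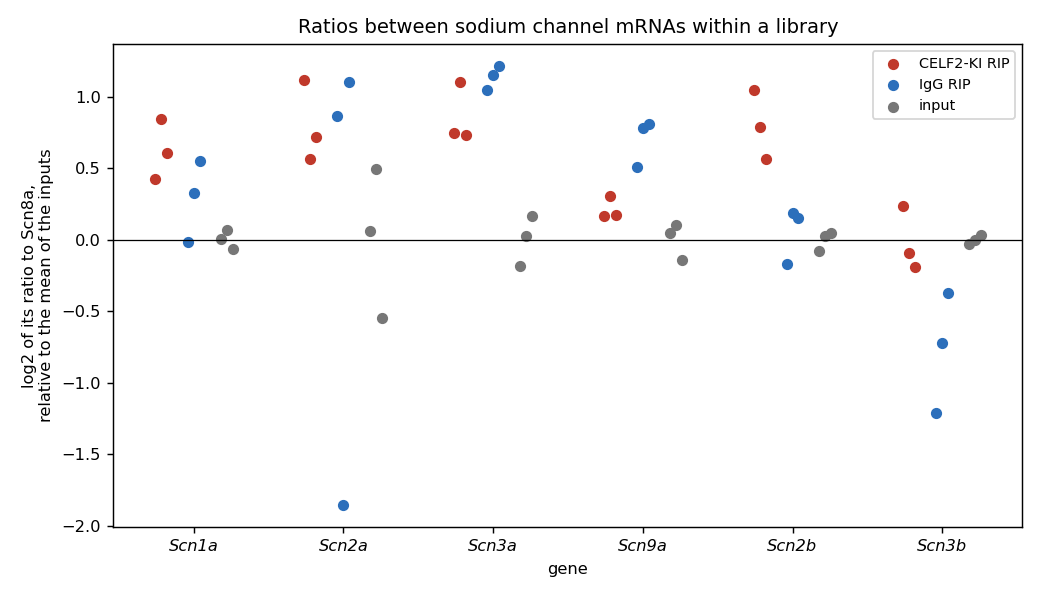
Log2 ratio of 6 sodium channel mRNAs to *Scn8a* within each library, with the mean of the inputs set to 0 (vertical axis). Points are single libraries of the 3 groups, and *Scn4b* is left out because IgG RIP 3 had a count of 0. *Scn2b* is higher in the CELF2-KI RIPs than in both controls and *Scn9a* is highest in the IgG RIPs.

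The counts of a gene were spread over its transcript rows, which kallisto fills by dividing reads that fit several transcripts. Estimates of rows of the same gene therefore share reads, and the row tests do not allow for the uncertainty of that division. In *Scn2b*, the curated row NM_001014761.2 held 463, 519 and 415 counts in the CELF2-KI RIPs, 58, 59 and 0 in the IgG RIPs and 1033, 1542 and 1030 in the inputs. The predicted row XM_006510629.3 held 104, 0.1 and 0, then 221, 117 and 222, and 0 in the 3 inputs. The curated share was thus 81.7% to 100% in CELF2-KI RIP, 0% to 33.5% in IgG RIP and 100% in input. The IgG RIPs stood apart from both other groups, while the summed levels of the gene in IgG RIP and input overlapped. The log2 ratio of predicted to curated counts was lower in CELF2-KI RIP than in IgG RIP by 11.1 (limma FDR = 0.0584) and higher in IgG RIP than in input by 15.1 (SE 2.58, FDR = 0.0182). Neither passed 0.01 and both sizes depend on the offset of 0.5 counts. With curated rows alone the log2 fold change of *Scn2b* over IgG RIP was 3.44 (edgeR FDR = 0.0221), and with predicted rows alone it was -2.17, so the call of *Scn2b* rests on the sum of both rows.

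Curated rows of *Scn1a* held 30.5% to 44.3% of its counts in input, 0% to 9.38% in CELF2-KI RIP and 0% to 13.6% in IgG RIP. Both pull-downs lay below input in every library. Most of the input share was the curated row NM_018733.2, with 879, 1666 and 524 counts in the inputs and at most 6.3 in any pull-down. With curated rows alone, *Scn1a* was below input in CELF2-KI RIP, at -2.35, which did not pass (edgeR FDR = 0.321). With predicted rows alone it was above input by 1.18 (FDR = 0.0067). Of the 6 genes with both kinds of row, 0 passed the limma test of this ratio at an FDR under 0.01 in each of the 3 comparisons, and 1, 1 and 2 had an unadjusted p under 0.05. The share of all genes at that unadjusted cut was not computed. Over all 7402 genes with at least 90 counts on each kind of row, 0.608% had a lower and 0.338% a higher ratio in CELF2-KI RIP than in IgG RIP. Against input these shares were 0.203% and 0.432% for CELF2-KI RIP and 0.365% and 1.01% for IgG RIP.

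In *Scn3a* the predicted row XM_006499031.3 held 82.5% of all *Scn3a* counts, with 1104, 1516 and 1187 in the CELF2-KI RIPs, 1430, 906 and 1045 in the IgG RIPs and 2081, 3355 and 2681 in the inputs. Counts of *Scn8a* were divided mainly over NM_001077499.2 (36.7%), XM_017316519.1 (33.6%) and XM_006520656.1 (14.5%). The last of these was at 0 in IgG RIP 2 and IgG RIP 3 and at 528 counts in IgG RIP 1. In IgG RIP 3 the curated row NM_011323.3 held 604 counts, 25.5% of the gene against at most 1.43% in the other libraries, and NM_001077499.2 held 9.33% against 25.1% to 41.8%. In *Scn2a*, the curated row NM_001099298.2 held 64.7% to 91.2% of the counts in 8 libraries and 0.54% in IgG RIP 2, where it had 1 count and the predicted row XM_017314945.1 had 190. That predicted row held 384 and 146 counts in the other IgG RIPs, so the low *Scn2a* value of IgG RIP 2 was in the curated row.

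*Scn3b* had 3 curated rows and no predicted one. NM_001083917.1 held 3722, 2740 and 2727 counts in the CELF2-KI RIPs, 1282, 826 and 1600 in the IgG RIPs and 13091, 16714 and 11896 in the inputs. In the fit over all rows it rose over IgG RIP by 1.54 (SE 0.24, edgeR FDR = 0.00542), and NM_178227.4 rose by 1.15 (SE 0.14, FDR = 0.0021). This fit has its own TMM scale, and the gene-level fit put *Scn3b* at 0.48 over input. In the row fit these 2 rows changed over input by -0.21 (edgeR FDR = 0.708) and 0.07 (FDR = 0.867), and overlapped it. Both were lower in IgG RIP than in input, by log2 fold changes of -1.75 and -1.09, 2 of 28 rows where 4.62% of all rows were. These 2 of the 28 rows tested were the ones called higher over IgG RIP, where 4.49% of 50417 rows were. Without CELF2-KI RIP replicate 2 or without IgG RIP replicate 2 the number called over IgG RIP was 0, and the number lower in IgG RIP than in input was 0 without either of them or without any input replicate. Over the 9 fits that left out 1 library, the number called over IgG RIP ran from 0 to 3 and differed from 2 in at least 8. The number lower in IgG RIP than in input also ran from 0 to 3 and differed from 2 in at least 7. Over input 1 of 28 was called higher, beside 0.593% of all rows. This was the predicted row XM_017316514.1 of *Scn8a*, with 306, 602 and 399 counts in the CELF2-KI RIPs, 304, 162 and 167 in the IgG RIPs and 492, 652 and 452 in the inputs. It changed by 1.65 over input (SE 0.26, edgeR FDR = 0.00676) and by 1.27 over IgG RIP (FDR = 0.0152), which did not pass. The number called over input was 0 without CELF2-KI RIP replicate 2 or 3, without IgG RIP replicate 2 and without any input replicate. With replicate number as a block, edgeR called 0 of the 28 higher over either control and 0 lower in IgG RIP than in input. At an unadjusted p under 0.05, 4 were higher and 2 lower over input, and the share of all rows at that cut was not computed.

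**Figure D4:**
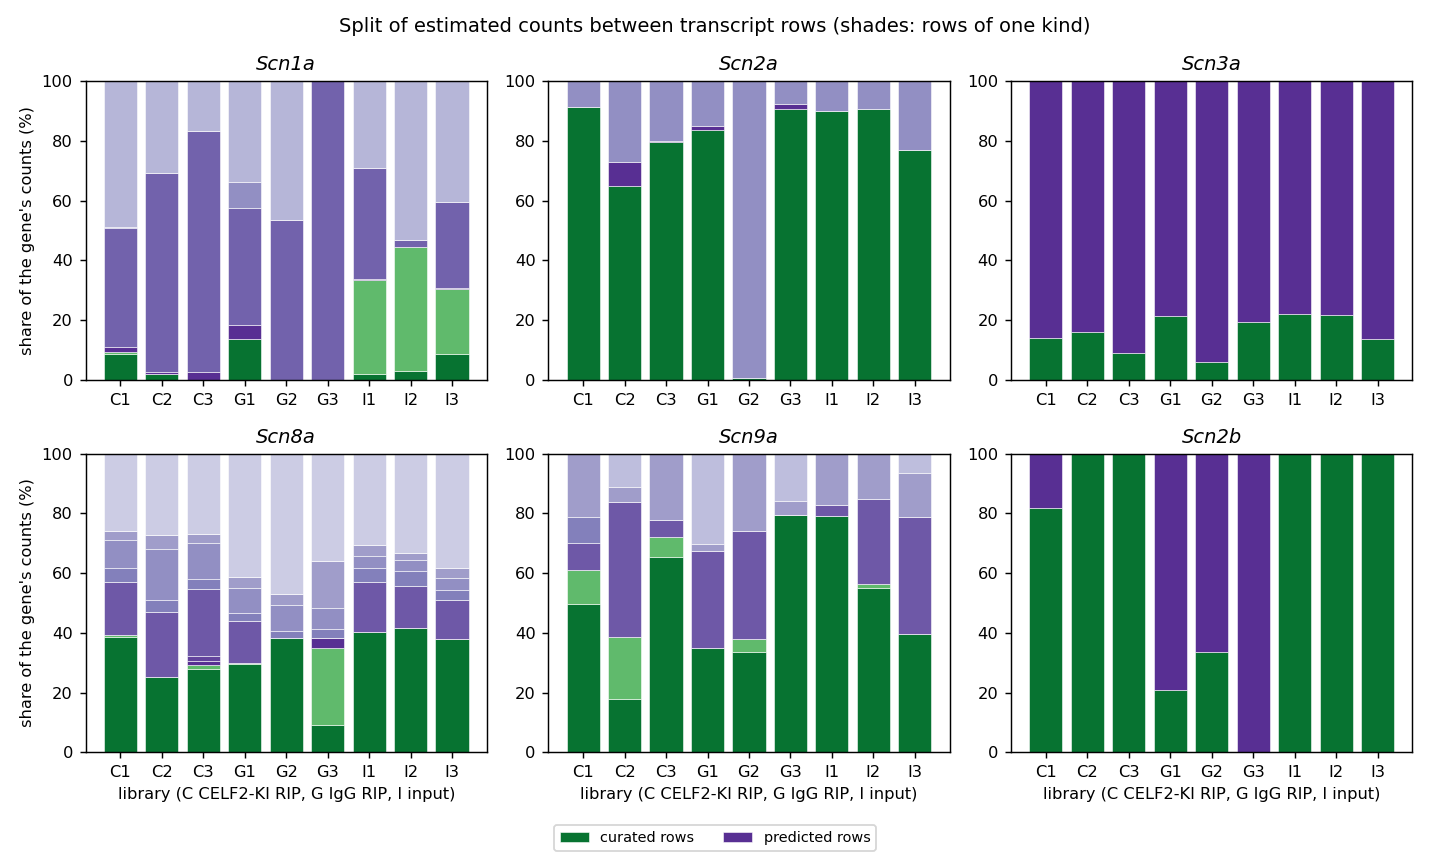
Share of each gene's estimated counts on its transcript rows (vertical axis, %) in the 9 libraries, for the 6 genes with both curated and predicted rows. Shades within a colour are separate rows. *Scn2b* is on its curated row in input and mainly on its predicted row in the IgG RIPs, and *Scn2a* in IgG RIP 2 is almost wholly on a predicted row.

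For 9 accessions of these genes in the gene table (6 of *Scn3a*, 2 of *Scn2a* and 1 of *Scn3b*) no row was matched, and 20662 rows of the counts table (19.2%) carried no gene. Counts of those rows that came from sodium channels were not included. The alpha subunits are related in sequence, *Scn3a*, *Scn2a*, *Scn1a* and *Scn9a* lie within 1.18 Mb of chromosome 2, and how reads shared between them were divided was not examined. Transcript lengths were not used, so levels were not compared between genes.

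Among 7 other genes of the channel family, 1 was called higher over IgG RIP, beside the 13.4% of all genes. *Nalcn*, the sodium leak channel, was at 199, 227 and 197 CPM in the CELF2-KI RIPs, 84.9, 90.5 and 101 CPM in the IgG RIPs and 123, 122 and 102 CPM in the inputs. All 3 CELF2-KI RIPs lay above all 6 controls. It rose over IgG RIP by 1.17 (SE 0.12, edgeR FDR = 3.02e-05) and was 0.85 over input, and on the scale of total counts the number called became 0. The next largest changes over IgG RIP were those of the sensory neuron alpha subunits *Scn10a* and *Scn11a*, at 0.64 (SE 0.54, edgeR FDR = 0.339) and 0.64 (SE 0.80, edgeR FDR = 0.524), and neither passed. Over input 1 was called higher (background 14.6%), the skeletal muscle alpha subunit *Scn4a*, which was at 0.3 CPM in each input and between 0.9 and 1.3 CPM in the CELF2-KI RIPs. Its change of 1.76 (SE 0.41, edgeR FDR = 0.00395) was no longer called with replicate number as a block, nor without any single input replicate or CELF2-KI RIP replicate 2 or 3.

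Of 17 partners of the channels at the axon initial segment, 1 was called higher over IgG RIP (background 13.4%) and 5 lower (background 13.6%), and over input 3 were called higher (*Sptbn4*, *Fgf13* and *Fgf14*, background 14.6%). *Fgf13*, a cytoplasmic factor that binds the channel's C-terminal tail, was at 115, 204 and 150 CPM in the CELF2-KI RIPs, 49.3, 52.2 and 68.6 CPM in the IgG RIPs and 68.8, 65.5 and 67.1 CPM in the inputs. It rose by 1.46 over IgG RIP (SE 0.20, edgeR FDR = 0.000177) and 1.22 over input (SE 0.20, FDR = 0.000444). Its relative *Fgf14* was lower than IgG RIP, at -1.10, and higher than input, at 1.10. *Ank3* encodes ankyrin-G, the scaffold that holds the channels in place, and was at 618, 693 and 870 CPM in the CELF2-KI RIPs, 2108, 2203 and 2692 CPM in the IgG RIPs and 636, 604 and 747 CPM in the inputs. The IgG RIPs were far above both other groups, which overlapped. *Ank3* was lower than IgG RIP, at -1.68 (SE 0.16, edgeR FDR = 1.84e-05), as were the ankyrin gene *Ank2* at -2.08 and the spectrin genes *Sptan1* at -1.54 and *Sptbn4* at -2.35. All 4 were called higher in IgG RIP over input, by 1.82, 2.31, 1.89 and 4.33, among 5 of the 17 partners beside 6.79% of all genes. For these scaffold mRNAs, unlike *Scn2b*, the 2 controls gave different readings of the CELF2-KI RIP.

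**Figure D5:**
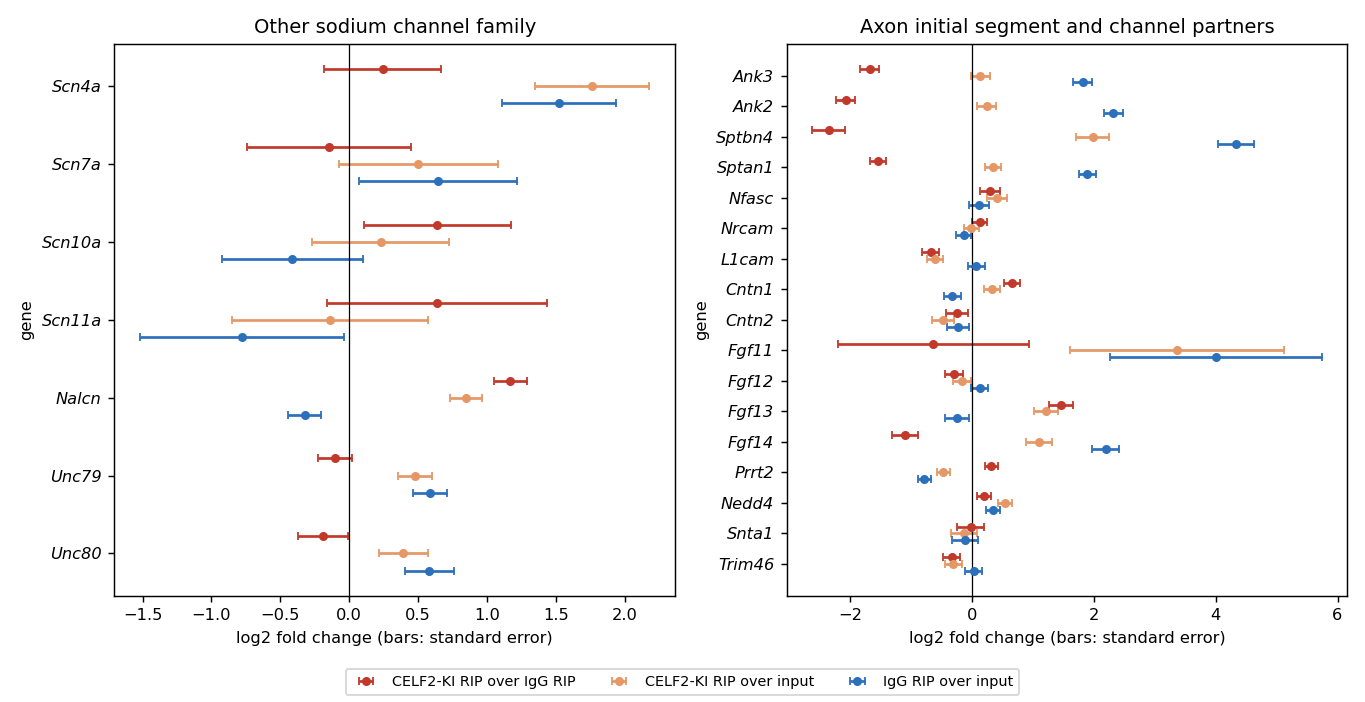
Log2 fold change (horizontal axis, bars of 1 standard error from the edgeR fit) of 7 other sodium channel family genes and 17 axon initial segment and channel partner genes in the 3 comparisons. *Nalcn* and *Fgf13* are to the right for both CELF2-KI RIP comparisons, and *Ank2*, *Ank3*, *Sptan1* and *Sptbn4* are low over IgG RIP and high in IgG RIP over input.

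Genes whose log2 CPM ran most like that of a channel over the 9 libraries were taken from 9719 genes with a mean of at least 10 CPM. For *Scn1a* they were *Kctd18*, *Pcdh8* and *Pura*, with Pearson correlations of 0.998, 0.997 and 0.995. For *Scn3a* they were *Ell*, *Rrp1b* and *Fras1*, at 0.993, 0.990 and 0.989. For *Scn8a* they were *Fbxl12*, *Kdm6a* and *Pcdha9*, at 0.983, 0.970 and 0.966. The closest to *Scn2a* reached only 0.958 (*Adipor2*), 0.940 (*Gclc*) and 0.940 (*Ppat*). The 9 libraries share 3 groups, so these values mainly describe the order of group levels.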

How the data were processed

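RNA was measured in 9 libraries, 3 in each group (CELF2-KI RIP, input and IgG RIP). The authors trimmed reads with fastp 0.23.4, removed rRNA reads with Ribodetector 0.3.1 and pseudoaligned with kallisto 0.51.1, and deposited the resulting estimated counts per transcript, not normalized for depth or length. The study's methods name an Ensembl transcriptome, while the rows carry RefSeq accessions, and the index used is not given further in the sources used here. All columns were used (0 left out). Genes were assigned to rows through the unversioned accession in RefSeq annotation of GRCm38.p6. Rows without a gene, left out, held 9.24% to 12.6% of counts in input and CELF2-KI RIP and 21.1% to 43.5% in IgG RIP, where 45S rRNA was most of it.

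Counts were summed per gene and rounded. Protein-coding genes that reached 0.5 CPM in 3 or more libraries were fitted in edgeR 4.0.16 (R 4.3.3, TMM, quasi-likelihood test, a mean per group, all 9 libraries, FDR over all genes tested, called at FDR under 0.01 and 2-fold), and rows were fitted likewise. SEs are the coefficient divided by the square root of F. The log2 ratio of predicted to curated counts was fitted in limma 3.58.1 with an offset of 0.5 counts, over genes with at least 90 counts on each side. The steps were tested on simulated data. Alternatives used DESeq2 1.42.0, other scalings, filters and rows, and leaving out each library.

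Deviations of same-numbered libraries had correlations of 0.110, 0.117 and 0.122 across 15267 genes between CELF2-KI RIP and input. In the other comparisons the correlations were -0.056 to 0.065. Differently numbered libraries were not compared, so these values do not settle whether replicate number pairs the libraries, and it entered as an alternative. The 8 genes and the lists were chosen with earlier results of these data known. All 8 genes were named, with list genes called or among the 3 largest changes over IgG RIP, rows with at least 10% of a gene, and the 3 genes most like each of 4 alpha subunits. *Kctd18* and other genes outside the lists are named by that last rule. *Fgf14*, *Scn4a* and a row of *Scn8a* are named for calls over input. The *Scn8a* row NM_011323.3 was chosen after its values were seen. A few genes of the channel family list are not reported here.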

Additional observations from a re-analysis of the deposited data

How the results depend on the processing

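Of 357 values of single channel mRNAs under other settings, 298 kept their direction and side of the thresholds, 30 lost a call, 3 gained one and 26 changed sign. *Scn2b* alone stayed above both controls in each of the 9 fits that left out 1 library. The count of the 8 genes called higher over IgG RIP was 2, and became 0 with total counts as library size, with glmTreat (a test against the 2-fold change itself) and with predicted rows only, and 1 with curated rows only and with rows of the same version only. Over input it was 3, and became 0 with total counts, with TMM over coding and noncoding genes, with glmTreat and with curated rows only, and 1 with predicted rows only and with rows of the same version only. It was 2 with DESeq2 size factors, the DESeq2 test and upper-quartile factors, where *Scn1a* was below 2-fold, and with only the 2 groups compared it was 3, with *Scn2a* (1.01, edgeR FDR = 0.00778) in place of *Scn1a* (0.89). In IgG RIP over input it was 1, and became 0 with TMM over coding and noncoding genes, glmTreat, curated rows, predicted rows and rows of the same version. The number above both controls went from 1 to 0 under total counts, TMM over coding and noncoding genes, glmTreat, curated rows, predicted rows and rows of the same version. Under total counts 3 of the 8 were higher over each control at an unadjusted p under 0.05 and 1 was lower over IgG RIP, and under glmTreat 2 were higher. The share of all genes at that unadjusted cut was not computed, so these counts have no background beside them. The setting with predicted rows only was chosen after seeing the data. Settings that leave out rows also redo the filter and the scaling, with 8989 genes tested on predicted rows only. The cause of these changes was not tested.

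*Scn9a* over IgG RIP changed sign from 0.034 to -0.033 with DESeq2 size factors and with the DESeq2 test, -0.34 with total counts, -0.23 with upper-quartile factors, -0.19 with TMM over coding and noncoding genes, -0.057 without a filter, -0.013 with only the 2 groups compared and -0.14 with predicted rows only. *Scn3a* over IgG RIP went from 0.24 to -0.13 with total counts, -0.023 with upper-quartile factors, -0.19 with curated rows and -0.18 with rows of the same version. *Scn2b* in IgG RIP over input went from 0.02 to -0.049 with DESeq2 size factors, -0.050 with the DESeq2 test, -0.069 with total counts, -0.15 with TMM over coding and noncoding genes, -0.0041 without a filter, -2.28 with curated rows and -2.35 with rows of the same version. *Scn8a* in IgG RIP over input went from -0.02 to 0.010 with upper-quartile factors and 0.0017 at a minimum of 2 CPM. *Scn1a* with curated rows and with rows of the same version was at -2.35 and -2.39 over input and at -2.60 and -2.66 in IgG RIP over input. *Scn2b* over IgG RIP was at -2.17 with predicted rows only.

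The other family genes called higher over IgG RIP went from 1 to 0 with total counts, upper-quartile factors, TMM over coding and noncoding genes, glmTreat, curated rows and rows of the same version. Over input they went from 1 to 0 with total counts, TMM over coding and noncoding genes, glmTreat, a minimum of 2 CPM, curated rows, rows of the same version and the replicate block. Partners called higher over input went from 3 to 1 with total counts, upper-quartile factors, TMM over coding and noncoding genes, glmTreat and only the 2 groups compared. Those called lower over input went from 0 to 1 with total counts and curated rows. Partners called higher over IgG RIP went from 1 to 0 with glmTreat and to 3 with curated rows and with rows of the same version, and those called lower from 5 to 3. In IgG RIP over input partners called higher went from 5 to 3 with curated rows and rows of the same version, and those called lower from 0 to 2 and 3.

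With the replicate block, member rows called higher went from 2 to 0 over IgG RIP and from 1 to 0 over input. Those called lower in IgG RIP over input went from 2 to 0. At an unadjusted p under 0.05 (edgeR), 7 were higher and 0 lower over IgG RIP, and 4 higher and 2 lower over input. In IgG RIP over input 2 were higher and 6 lower. The shares of all rows at that unadjusted cut were not computed. The block changed no call of the 8 genes. With total counts the numbers of rows called were 1, 2 and 0, and with a minimum of 2 CPM they were 1 over IgG RIP and 1 in IgG RIP over input. The members called by the ratio of predicted to curated rows in IgG RIP over input went from 0 to 1 with an offset of 5 counts (*Scn2b*). Pairs that do not overlap went from 13 to 8 with curated rows only.

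Leaving out 1 library at a time, *Scn9a* over IgG RIP ran from -0.070 to 0.0997, *Scn8a* in IgG RIP over input from -0.16 to 0.075 and *Scn2b* in IgG RIP over input from -0.014 to 0.068. Over IgG RIP the predicted to curated log2 ratio ran from -3.63 to 0.59 for *Scn1a*, -4.37 to 0.74 for *Scn2a*, -0.21 to 0.83 for *Scn3a* and -1.25 to 0.17 for *Scn9a*. In IgG RIP over input it ran from -0.083 to 5.03 for *Scn2a*, -0.14 to 0.90 for *Scn3a* and -0.24 to 1.36 for *Scn9a*, and for *Scn9a* in CELF2-KI RIP over input from -0.56 to 0.69. The low end for *Scn2a* in IgG RIP over input came without IgG RIP replicate 2. Other family genes called higher over input ran from 0 to 1 (0 without CELF2-KI RIP replicates 2 or 3 or any input replicate). Partners called higher over input ran from 1 to 3, at 1 without CELF2-KI RIP replicate 2. Member rows called higher ran from 0 to 3 over IgG RIP (0 without CELF2-KI RIP replicate 2 or IgG RIP replicate 2), 0 to 1 over input and 0 to 1 in IgG RIP over input, and those lower in IgG RIP over input from 0 to 3. Depth limits *Scn4b*, with at most 71 counts in a pull-down.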
